A study of Homo sapiens with 8 samples.

Results

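FAIRE-seq recovers DNA that stays free of protein after formaldehyde fixation, and its peaks mark open chromatin. Broad open regions were examined here across 8 FAIRE-seq peak lists from U2OS cells, a human osteosarcoma line. They were chosen by their measured extent: peaks of the 8 lists on chromosomes 1 to 22 and X were merged where they shared at least 1 bp, and a merged region was kept if it had a peak in 2 or more lists and a length of 2000 bp or more. Of 31829 regions with a peak in 2 or more lists, 324 met this rule, or 1.02%, and they held 3.86% of the merged base pairs. No region of 2000 bp or more was found in 1 list only. Length and presence in the lists selected the regions, so both are given as description.

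The libraries came from 2 wild-type clones (WT_4 and WT_5) and 2 clones lacking ZBTB48 (KO_C5 and KO_D2), a zinc finger protein that binds telomeric repeats and some promoters. Each clone gave 1 untreated library and 1 library after interferon gamma (IFNγ) at 250 U/ml, which the labels time at 24 h. A legend of the study names a longer exposure for FAIRE-seq, so the duration is uncertain. The 4 groups (WT, KO, WT_IFNg and KO_IFNg) therefore held 2 libraries each, replicate 1 being WT_4 or KO_C5 and replicate 2 WT_5 or KO_D2. Each genotype was represented by 2 clonal lines, so a difference between genotypes cannot be told apart from a difference between clones. The ZBTB48 promoter had a peak in all 8 lists, which says nothing about the coding lesion. The promoter of MTFP1, a gene known to be bound by ZBTB48, had a peak in 3 of 4 WT libraries (not in WT replicate 1) and in 0 of 4 KO libraries. Promoters of 3 to 7 of 9 osteoblast and mesenchymal markers had a peak per library, against 3 of 4 epithelial markers and 0 to 2 of 4 blood markers. The lists held 16730 to 37533 peaks, with median widths of 363 to 476 bp.

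Most vertebrate promoters lie in CpG islands, stretches rich in the dinucleotide CG that tend to be kept open, and the DNA just upstream of an active start is usually short of nucleosomes. Open intervals of several kilobases are known from genes with many starts, from strongly used immediate early and housekeeping promoters, and from CpG islands of developmental regulators. Imprinted genes also have wide CpG-rich control regions, of which only 1 parental copy is unmethylated.

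Windows of 300 bases around the strongest summit are shown for 4 broad regions that carry the results below, read 5′ to 3′ on the plus strand of GRCh38. Capitals mark CG dinucleotides in the first 3 windows. That of JUN (chr1:58784058-58784357) is centred 160 bp upstream of the canonical start of this minus-strand gene, and that of TSHZ3 (chr19:31349561-31349860), also on the minus strand, 274 bp upstream. The window of the plus-strand gene VSTM2B (chr19:29527267-29527566) is centred 1422 bp downstream of the start and overlaps a coding exon. In the window of the imprinted pair PEG3 and ZIM2 (chr19:56838821-56839120), centred 1756 bp downstream of the canonical start of PEG3 on the minus strand, capitals mark AAGATGGC, a word that the factor YY1 is known to bind.
JUN: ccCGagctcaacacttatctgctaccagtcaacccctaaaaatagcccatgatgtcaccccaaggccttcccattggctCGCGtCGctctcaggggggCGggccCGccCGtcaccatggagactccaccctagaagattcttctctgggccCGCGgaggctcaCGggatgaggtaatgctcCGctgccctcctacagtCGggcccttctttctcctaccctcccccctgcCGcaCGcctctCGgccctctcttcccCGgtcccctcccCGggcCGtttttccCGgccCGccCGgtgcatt
TSHZ3: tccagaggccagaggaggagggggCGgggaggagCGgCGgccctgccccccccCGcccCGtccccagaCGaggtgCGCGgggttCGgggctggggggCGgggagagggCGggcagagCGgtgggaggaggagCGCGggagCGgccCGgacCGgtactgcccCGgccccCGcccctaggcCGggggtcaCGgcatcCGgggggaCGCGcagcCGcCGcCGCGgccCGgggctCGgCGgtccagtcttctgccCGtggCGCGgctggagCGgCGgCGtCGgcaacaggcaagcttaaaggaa
VSTM2B: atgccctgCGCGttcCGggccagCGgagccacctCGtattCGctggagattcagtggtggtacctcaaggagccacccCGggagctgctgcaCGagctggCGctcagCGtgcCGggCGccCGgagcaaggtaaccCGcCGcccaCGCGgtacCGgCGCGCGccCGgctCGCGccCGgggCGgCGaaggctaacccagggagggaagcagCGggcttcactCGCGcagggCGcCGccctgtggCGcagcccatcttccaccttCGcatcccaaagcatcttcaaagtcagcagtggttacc
PEG3 and ZIM2: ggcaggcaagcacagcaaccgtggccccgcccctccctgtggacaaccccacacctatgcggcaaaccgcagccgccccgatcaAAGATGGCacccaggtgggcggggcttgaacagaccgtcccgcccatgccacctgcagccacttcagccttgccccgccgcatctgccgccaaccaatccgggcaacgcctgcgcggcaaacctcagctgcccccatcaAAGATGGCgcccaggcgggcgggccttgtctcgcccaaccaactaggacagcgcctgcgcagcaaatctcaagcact

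The windows of JUN, TSHZ3 and VSTM2B held 21, 38 and 34 CG dinucleotides at 64.7%, 79.3% and 69.7% GC. The PEG3 window held 2 copies of AAGATGGC on either strand, and the whole 3505 bp region held 9. This word was looked for after the window had been read. It was in 9 of 324 broad windows (2.78%), against 2.66% of windows in all 31829 regions and 4.81% of those in other regions that cover a protein-coding start.

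Of the broad regions, 4 were unlike the rest in sequence. They lay side by side on chromosome 2 between positions 89774262 and 89808385, far from any gene (the nearest annotated start, IGKV2D-40, was 43406 to 68667 bp away), and were built of the words CATTC and GAATG, the unit of pericentromeric satellite DNA. Windows of 240 bases are shown for the longest (chr2:89779813-89780052) and the second longest (chr2:89797078-89797317), on the plus strand of GRCh38 with these words in capitals.
Longest satellite region: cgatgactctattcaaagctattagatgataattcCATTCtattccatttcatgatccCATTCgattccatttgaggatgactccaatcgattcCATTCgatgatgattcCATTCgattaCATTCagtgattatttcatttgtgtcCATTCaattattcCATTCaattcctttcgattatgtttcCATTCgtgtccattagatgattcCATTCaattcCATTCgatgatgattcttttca
Second satellite region: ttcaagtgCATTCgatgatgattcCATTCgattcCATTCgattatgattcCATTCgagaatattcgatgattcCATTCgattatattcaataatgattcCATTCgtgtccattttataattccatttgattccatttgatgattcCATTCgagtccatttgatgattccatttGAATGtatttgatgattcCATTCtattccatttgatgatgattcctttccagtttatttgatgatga

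The 4 satellite regions held 39.6 to 43.6 copies of these words per kb, at 34.7% to 35.9% GC. The other 320 broad regions held at most 3.86 per kb, and the median over all regions was 0.852. The threshold used to set them apart, 20 words per kb, was chosen after their values had been seen.

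The merged length of the 324 regions had a median of 2273 bp, with quartiles of 2123 and 2556 bp, against a median of 524 bp for all regions in 2 or more lists. Only 38 reached 3000 bp and 6 reached 4000 bp. The limit cut through a continuous range. CORO1C (2000 bp), EGFR (2001 bp) and ZBTB2 (2001 bp) lay just inside it, while HNRNPU (1990 bp), HOOK3 with RNF170 (1991 bp) and a region near ENSG00000260877 (1995 bp) lay just outside. Most members were wider in the merge than in any one library. A single peak of 2000 bp or more was found in at least 1 library for 196 regions, in exactly 1 library for 124 of these, and in none for the other 128. In 110 regions, all peaks of the widest library together covered less than 2000 bp. The widest library covered a median of 92.8% of the merged length.

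A single wide peak in all 8 libraries was seen at 1 region, the divergent promoter of MBOAT7, a lysophospholipid acyltransferase, and TSEN34, a tRNA splicing endonuclease subunit. Its peaks covered 2540 and 2129 bp in WT, 2420 and 2103 bp in KO, 2230 and 2271 bp in WT_IFNg and 2119 and 2156 bp in KO_IFNg. Next came ARHGEF17 and the host gene of the let-7b microRNA cluster, each with such a peak in 7 libraries, and then CEBPB and the pair ZBTB1 and ZBTB25 in 6 libraries. These regions were picked for a wide peak in many libraries, so an even cover follows in part from the pick. At the let-7b host gene the cover still ran from 2032 bp in KO replicate 2 to 2944 bp in WT_IFNg replicate 2.

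The longest region that covered a gene start was TMEM184A on chromosome 7 (4816 bp), where 2 libraries had no peak. The first region of ELFN1, a synaptic adhesion protein, followed at 4484 bp. MIDN, which encodes midnolin, a protein that carries substrates to the proteasome, spanned 4060 bp. Its peaks covered 3090 and 3465 bp in WT, 1781 and 2386 bp in KO, 3215 and 3737 bp in WT_IFNg and 2603 and 2119 bp in KO_IFNg. All 4 WT libraries of MIDN lay above all 4 KO libraries. The protocadherin gene PCDH7 (3907 bp) was more uneven, with 1699 and 2470 bp in WT, 617 and 436 bp in KO, 1780 and 3158 bp in WT_IFNg and 1472 and 632 bp in KO_IFNg. ZFP36L2, an RNA-binding protein that shortens the life of mRNAs, spanned 3832 bp. Its WT libraries covered 3634 and 2261 bp untreated and 2656 and 3553 bp with IFNγ, and its KO libraries covered 2096 and 1761 bp untreated and 3177 and 2701 bp with IFNγ. Here the genotypes overlapped.

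**Figure D1:**
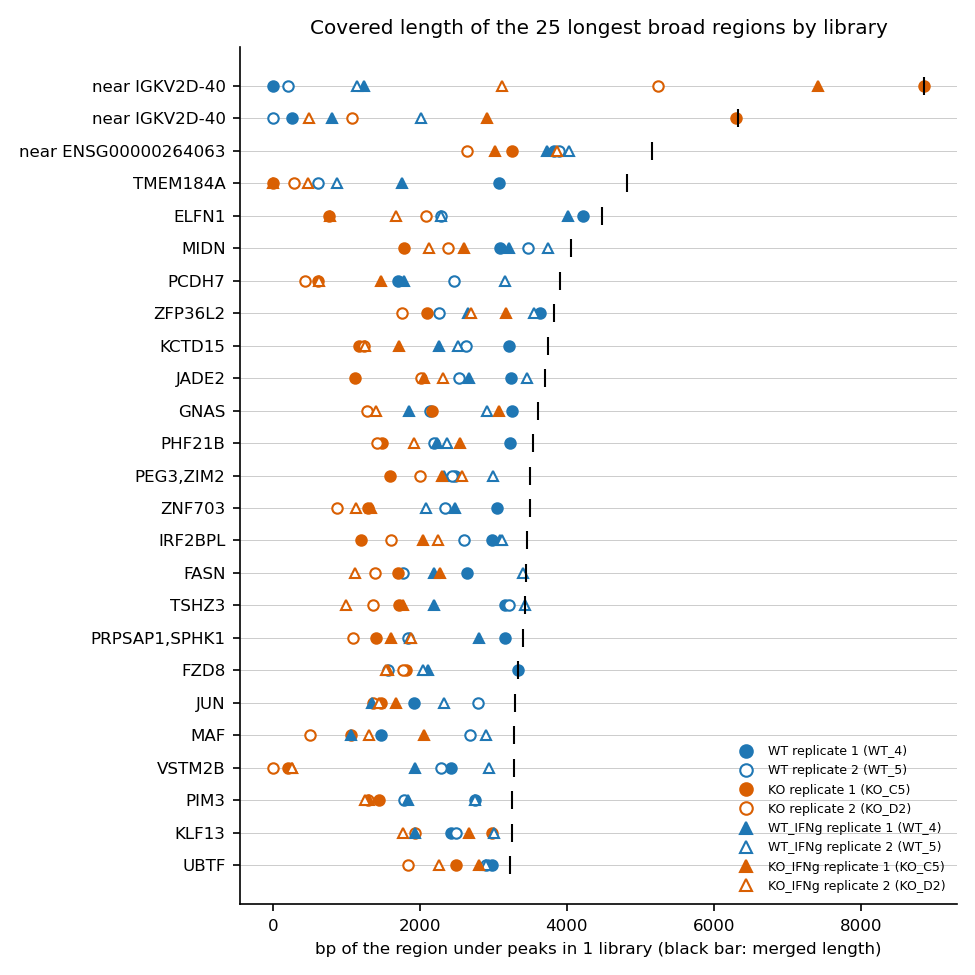
Base pairs under peaks in each library (x axis, bp) for the 25 longest broad regions (y axis, named by the genes whose start they cover or by the nearest start), with the merged length as a black bar. Circles are untreated and triangles IFNγ libraries, blue is WT and orange KO, and filled symbols are replicate 1; at MIDN the WT libraries cover 3090 to 3737 bp and the KO libraries 1781 to 2603 bp.

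A region on chromosome 21 (chr21:8991472-8996624, 5153 bp) was the third longest. It covered no annotated start, had 41.5% GC and lay 4102 bp from ENSG00000264063. Its peaks covered 3825 and 3898 bp in WT, 3259 and 2638 bp in KO, 3732 and 4028 bp in WT_IFNg and 3028 and 3866 bp in KO_IFNg. Every library had it, at a summit pileup of only 12 to 49 fragments. Pileup is the number of sequenced fragments over the summit, recovered here from the fold enrichment and p-value in the lists.

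Broad regions were mostly promoters. A protein-coding transcript start lay in 288 of 324 regions (88.9%, exact 95% interval 85.0% to 92.1%), against 41.2% of the other 31505 regions. Of the rest, 15 covered only another kind of start and 21 covered none. These 21 included regions near the transcription factor genes SCX (2 regions), UNCX and BCOR and near the adhesion receptor gene ADGRB1. The promoters of 325 protein-coding genes were covered, or 2.46% of the 13237 with a start in any region. Housekeeping genes were among them, such as the glycolytic enzyme GAPDH, the cytoplasmic actin ACTG1, the poly(A)-binding protein PABPC1 and the adaptor protein YWHAZ.

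The open interval reached further into the gene than away from it. Among the 224 regions that cover the start of exactly 1 protein-coding gene, the merged region extended a median of 1011 bp upstream and 1320 bp downstream of the canonical start, and 141 (62.9%) reached further downstream. In other regions of this kind the medians were 352 and 408 bp, and 53.7% reached further downstream. The covered genes had a median first exon of 290 bp, against 184 bp for genes at other regions, and 84.8% of the regions ended beyond that exon, against 77.3% of other regions of this kind and 82.4% of those among them with a peak in all 8 lists. Coding exons took up 12.3% of the bases of broad regions and 7.90% of other regions. Untranslated exons took up 19.4% and 16.2%. These base shares are over all other regions, of which 41.2% cover a protein-coding start, against 88.9% of the broad ones.

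Short and intronless genes were more frequent among the covered genes. A single exon was annotated for 18 of 325 (5.54%), against 2.0% of genes at other regions, and a span under 5000 bp for 54 (16.6%), against 9.26%. The single-exon genes included JUN and JUND, subunits of the AP-1 transcription factor, CEBPB and CEBPD, bZIP factors of inflammation, and the Wnt receptors FZD7 and FZD8. They also held NOG, which encodes the BMP antagonist noggin, and FOXD1, a forkhead factor. Whole genes fitted inside the open interval in 4 cases, among them CEBPD (1252 bp in a region of 2453 bp), JUND (1929 bp in 3035 bp) and TNFRSF12A, the receptor of the cytokine TWEAK (2016 bp in 2957 bp). The number of exons did not set them apart, with a median of 9 in both sets. Length of the region itself entered the choice, so these shares are descriptions with no test.

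GC content had a median of 69.3% in broad regions and 67.3% in other regions with a protein-coding start, and the observed to expected CpG ratio was 0.826 and 0.818. Other regions with a protein-coding start and a peak in all 8 lists had 68.1% GC and a CpG ratio of 0.836, slightly above that of the broad regions. Only 6 broad regions had under 50% GC, the 4 satellite regions, the region on chromosome 21 and WDR74 (49.95%), which covers the start of a ribosome assembly factor. Length was unrelated to these features over the 324 regions, with Spearman rank correlations of 0.0076 for GC content, -0.000089 for the number of transcript starts and 0.055 for the mean strength percentile. These regions share libraries and base composition, and the correlations are a description.

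Short words were counted on both strands of the 300 bp around each summit. GGGCGG, the GC box bound by SP1, was in 84.3% of broad windows, 52.3% of other windows and 78.7% of windows in other regions with a protein-coding start, or 85.8% of those with a peak in all 8 lists. The AP-1 site TGANTCA was in 7.1%, 19.9% and 5.05% of the same sets, or 3.56% of promoters in all 8 lists. CCAAT, bound by NF-Y, was in 30.9%, 27.8% and 33.0%. The telomeric repeat unit TTAGGG, to which ZBTB48 binds, was in 4.32%, 7.02% and 6.70%, and GTGAGT, a control word of like length, in 7.72%, 16.7% and 12.1%. Against other promoters, the share of broad windows was thus lower for the NF-Y word, the telomeric unit and the control word and higher for the AP-1 site, on counts of 14 windows for the telomeric unit and 23 for the AP-1 site.

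Strength varied widely among the members. Each peak was ranked within its list by its −log10 p, and the mean percentile of a region's best peak ranged from 5.43 to 99.7 over the members, with a median of 76.9. It was 90 or more at 75 regions and under 50 at 62. The strongest were MIDEAS, a subunit of a histone deacetylase complex (99.7), ZBED4 (99.5), LSM14B (99.5), CDK13, a cyclin-dependent kinase of transcription (99.4) and TRIB1, a pseudokinase (99.4). MIDEAS had a summit pileup of 268 to 444 fragments in the 8 libraries. TSHZ3, at 3436 bp among the longest, reached only 37 to 66 fragments, and the epithelial-mesenchymal repressor ZEB1 (2760 bp) only 18 to 36.

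Immediate early genes were the best represented of 18 gene lists. These genes are transcribed within minutes of a stimulus and include the subunits of AP-1. Of 28 AP-1 and immediate early genes with a start in any region, 9 lay in a broad region (32.1%), against 2.46% of all protein-coding genes. They were ZFP36L2, JUN, JUND, GADD45B, ATF3, FOSL2, MAFK, GADD45A and MYC, at 2070 to 3832 bp, and the median length of the 36 regions of this list was 1326 bp. The KLF and EGR zinc finger factors followed with 4 of 15 genes (26.7%), which were KLF13 (3248 bp), EGR1 (2640 bp), KLF3 (2384 bp) and KLF12 (2183 bp). The lists were drawn up with results of these data known, and no test was made of them.

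**Figure D2:**
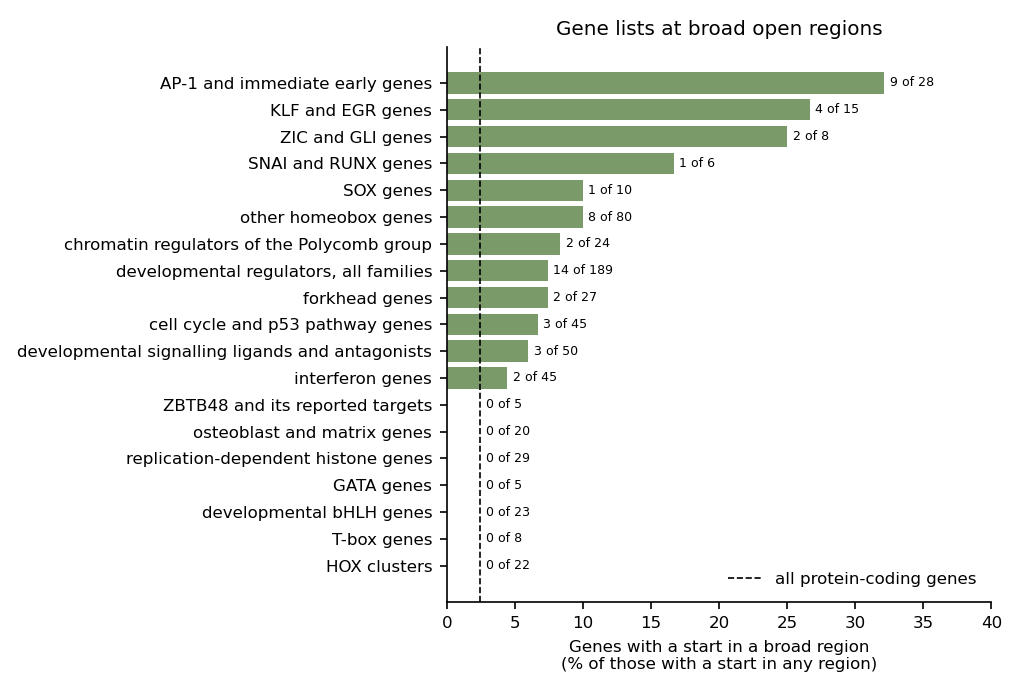
Share of genes of each list whose start lies in a broad region (x axis, % of the list's genes with a start in any region), with counts at the bars and a dashed line at 2.46% for all protein-coding genes. The AP-1 and immediate early list stands at 32.1%. HOX, T-box, GATA and bHLH genes stand at 0, on lists of 5 to 23 genes with a start in any region.

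Developmental regulators, taken as 9 families of patterning transcription factors, had 14 of 189 genes in broad regions (7.41%). These 14 regions were 4.32% of the members (exact 95% interval 2.38% to 7.14%), against 1.60% of other regions with a protein-coding start. Homeobox genes outside the HOX clusters supplied 8, namely TSHZ3, ZEB1, SIX5, IRX5, PBX3, CUX1, POU2F1 and IRX3. The others were GLIS2 and GLI2 of the GLI-like zinc fingers, RUNX1, SOX9, FOXD1 and FOXO3. HOX genes, which lie in clusters covered by wide CpG islands, had 22 genes with a start in some region and none in a broad one. Their 26 regions had a median length of 1078 bp, against 800 bp for the regions of all protein-coding genes. Likewise 0 of 8 T-box, 0 of 5 GATA and 0 of 23 developmental bHLH genes were covered. At the 2.46% of all protein-coding genes, lists of this size can hold none, so these counts are descriptions. Outside these lists, and picked out after their values were seen, the starts of the bHLH factor SCX (2673 bp), the zinc finger factors SALL1 (2761 bp) and SCRT1 (2548 bp) and the bZIP factor MAF (3286 bp) also lay in broad regions.

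SOX9, a regulator of cartilage formation, covered 1189 and 1231 bp in WT, 745 and 559 bp in KO, 1429 and 2091 bp in WT_IFNg and 1531 and 632 bp in KO_IFNg. The genotypes overlapped. RUNX1, a blood and skeletal factor, covered 1966 and 2495 bp in WT, 2334 and 1146 bp in KO, 2249 and 2564 bp in WT_IFNg and 2009 and 1566 bp in KO_IFNg. Again no order of the groups was seen. At TSHZ3, a zinc finger homeobox factor, the WT libraries covered 3158 and 3218 bp untreated and 2192 and 3436 bp with IFNγ, and the KO libraries 1724 and 1369 bp untreated and 1769 and 998 bp with IFNγ. There the genotypes did not overlap.

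Further lists gave small counts. Developmental signalling ligands and antagonists had 3 of 50 genes (VEGFA, NOG and WNT9A), cell cycle and p53 pathway genes 3 of 45 (CDK13, CDKN1A and CDKN1C), and chromatin regulators listed by name as Polycomb group 2 of 24 (CBX3 and PCGF2). PCGF2 is a subunit of Polycomb complexes, whereas CBX3 encodes the heterochromatin protein HP1 gamma. No replication-dependent histone gene (0 of 29), osteoblast or matrix gene (0 of 20) or reported ZBTB48 target (0 of 5) was covered. Over all protein-coding genes the share was 2.46%. Interferon genes had 2 of 45, both of them feedback inhibitors of cytokine receptor signalling, SOCS1 and SOCS3. SOCS1 covered 2179 and 2047 bp in WT, 1051 and 949 bp in KO, 2051 and 3068 bp in WT_IFNg and 1818 and 2329 bp in KO_IFNg. WT_5 and both KO clones were wider with IFNγ, whereas WT_4 was not. SOCS3 covered 2245 and 1662 bp in WT, 1089 and 852 bp in KO, 1985 and 1705 bp in WT_IFNg and 1329 and 820 bp in KO_IFNg.

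Of the imprinted loci, PEG3 with ZIM2 (3505 bp) covered 2473 and 2434 bp in WT, 1600 and 2001 bp in KO, 2323 and 3000 bp in WT_IFNg and 2304 and 2575 bp in KO_IFNg. GNAS (3613 bp), the complex locus of the stimulatory G protein alpha subunit, held 26 transcript starts and covered 3254 and 2141 bp in WT, 2169 and 1286 bp in KO, 1858 and 2914 bp in WT_IFNg and 3071 and 1401 bp in KO_IFNg. CDKN1C, a cyclin-dependent kinase inhibitor, covered 2349 and 1919 bp in WT, 1688 and 1871 bp in KO, 1937 and 1700 bp in WT_IFNg and 1562 and 1382 bp in KO_IFNg. Each of these 3 regions had a peak in every library, and at each of them the genotypes and the treatments overlapped.

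The number of members a library covered for 2000 bp or more differed several-fold between libraries. It was 119 and 70 in WT, 23 and 16 in KO, 63 and 141 in WT_IFNg and 52 and 35 in KO_IFNg. The median covered length was 1827 and 1533 bp in WT, 1165 and 928 bp in KO, 1466 and 1940 bp in WT_IFNg and 1473 and 1192 bp in KO_IFNg. Averaged over the libraries of a clone, the medians were 1692 ± 64 bp in WT and 1189 ± 183 bp in KO (SD, n = 2 clones each), a difference of 502 bp. The other regions with a peak in all 8 lists had 622 ± 42 bp and 508 ± 28 bp. Thus the broad regions were 2.72 ± 0.084 times as wide as the others in WT and 2.33 ± 0.23 times in KO. With 2 clones against 2, an exact two-sided permutation test cannot give a p below 0.333.

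Members with a longer mean cover in WT than in KO numbered 307 (94.8%), against 85.2% of other regions with a peak in all 8 lists. The widest library was from WT at 113 and 24 members, KO at 8 and 1, WT_IFNg at 18 and 137 and KO_IFNg at 16 and 7. Merged length chose the members, so the rule itself favoured wide WT cover among them. The WT excess over other regions, here and in the ratios above, is therefore a description. Every WT library exceeded every KO library in 59 members (18.2%), compared with 5.01% of all regions in 2 or more lists, 10.4% of other regions in all 8 lists and 11.5% of those among them with a protein-coding start. The 59 included MIDN, PCDH7, TSHZ3, KCTD15, JADE2, ZNF703, IRF2BPL and PIM3. The reverse order was seen in 2 members (0.617%, against 0.113% of all regions), both of them satellite regions. When 1 library was left out, the 59 ranged from 46 to 98, with 98 without WT replicate 2, 89 without WT_IFNg replicate 1 and 93 without KO_IFNg replicate 1.

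Fold enrichment, summit pileup and local background ordered the genotypes differently. The peak caller divides the pileup by the local background, the number of fragments it expects there. Over the 298 members with a peak in all 8 lists, fold enrichment was higher in every WT than in every KO library at 86 regions (28.9%, against 22.8% of all 11551 such regions). The same order of the summit pileup was seen at 1 region (0.336%, against 0.208%). The local background was lower in every WT than in every KO library at 199 members (66.8%, against 58.3%). Median pileup was 77 ± 10.6 fragments in WT and 80.9 ± 11.1 in KO, and median local background 1.33 ± 0.30 and 2.72 ± 0.15 fragments (SD, n = 2 clones). The part of the background in the wider WT cover was not tested.

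**Figure D3:**
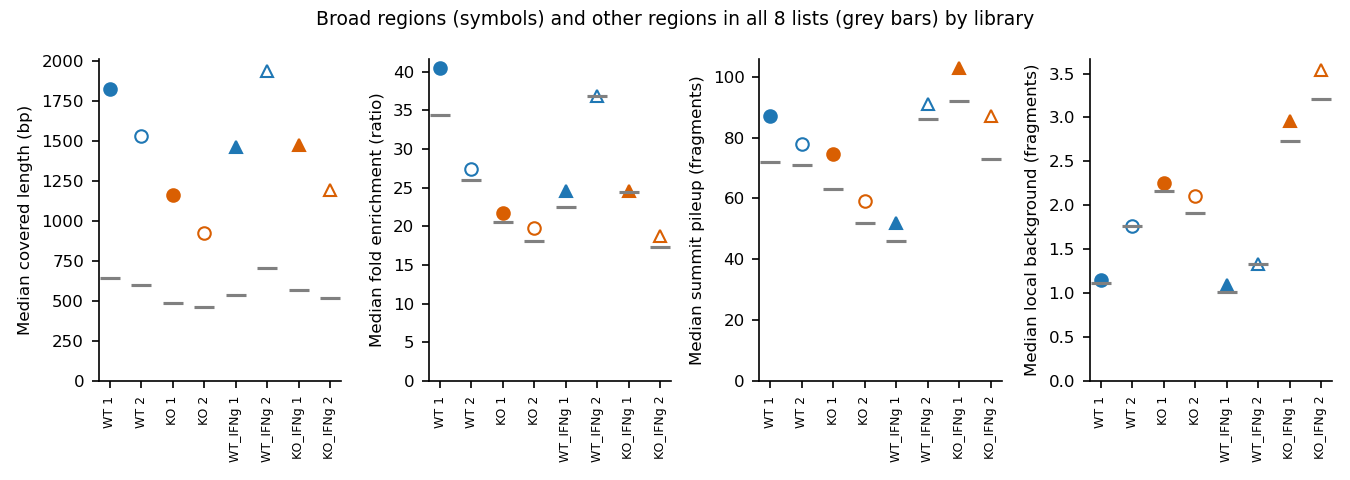
Medians per library (x axis) of covered length (bp), fold enrichment (ratio), summit pileup (fragments) and local background (fragments) over the broad regions (symbols) and over other regions in all 8 lists (grey bars). Covered length is 1466 to 1940 bp in the WT and 928 to 1473 bp in the KO libraries, median pileups overlap, and every KO library has a higher local background than every WT library.

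The genotypes were separate at 500 bp downstream of the gene start. At this position 76.8% and 49.1% of the 224 single-gene regions were under a peak in WT, 36.2% and 27.2% in KO, 58.5% and 69.2% in WT_IFNg and 37.9% and 32.6% in KO_IFNg. All WT libraries lay above all KO libraries. At 1000 bp downstream they overlapped, since KO_IFNg replicate 1 (36.6%) lay above WT replicate 2 (36.2%) and WT_IFNg replicate 1 (35.7%). At 500 bp upstream the values were 65.6% and 58.9% in WT, 42.4% and 41.5% in KO, 58.0% and 71.9% in WT_IFNg and 57.1% and 51.3% in KO_IFNg. The genotypes were closer there, with KO_IFNg replicate 1 just below WT_IFNg replicate 1. At the start itself 82.1% to 96.0% were under a peak. Among 6881 other single-gene regions the position 500 bp downstream was under a peak in 19.3% to 30.3% in WT and 10.3% to 17.3% in KO libraries.

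**Figure D4:**
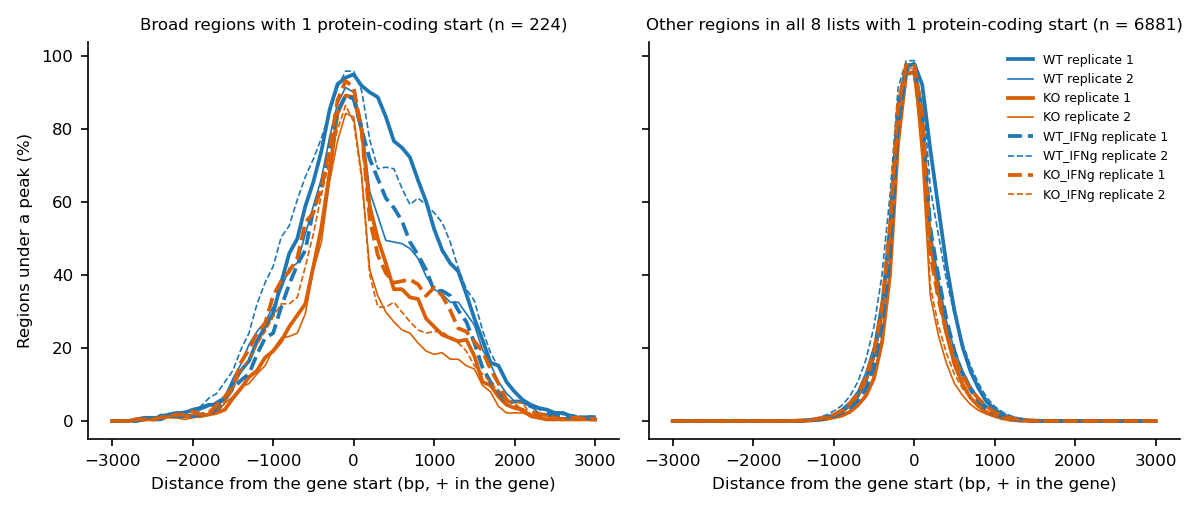
Share of regions under a peak (y axis, %) by distance from the canonical start (x axis, bp, positive values inside the gene) for 224 broad regions and 6881 other regions in all 8 lists that cover 1 protein-coding start, 1 line per library (blue WT, orange KO, dashed IFNγ, thick replicate 1). At 500 bp downstream the WT libraries stand at 49.1% to 76.8% and the KO libraries at 27.2% to 37.9% for the broad regions, and at 1000 bp their ranges overlap.

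No broad region followed genotype or treatment by presence alone. A peak in every library of one genotype or treatment and in none of the other was seen at 0 members, against 0.566% of all regions in 2 or more lists. Most members, 298 of 324 (92.0%, exact 95% interval 88.5% to 94.7%), had a peak in all 8 lists, against 36.3% of all regions in 2 or more lists. A region in all 8 lists cannot show such a pattern, so only the other 26 members could. Within 1 library of such a genotype pattern were 2 of the satellite regions, with a peak in 0 of 4 WT and 3 of 4 KO libraries or in 1 of 4 and 4 of 4, and the region near INTS1 on chromosome 7, with a peak in 4 of 4 WT and 1 of 4 KO libraries. The latter covered 2722 and 802 bp in WT, 0 and 0 bp in KO, 1528 and 1374 bp in WT_IFNg and 0 and 716 bp in KO_IFNg, so KO_IFNg replicate 2 came close to WT replicate 2. VSTM2B had peaks in 3 of 4 KO libraries, but short ones. This gene encodes an immunoglobulin-domain membrane protein, and its region covered 2423 and 2293 bp in WT, 214 and 0 bp in KO, 1937 and 2940 bp in WT_IFNg and 257 and 256 bp in KO_IFNg. KO thus had at most 257 bp of a 3284 bp region, and only WT libraries covered 2000 bp or more of it. Merged length chose the members, so such gaps in cover are a description. The summit pileup of VSTM2B was 22 to 31 fragments in the WT libraries and 28 to 30 in the 3 KO libraries with a peak. The local background was 1.01 to 1.77 and 3.36 to 5.07 fragments.

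The members' median cover was longer with IFNγ in 3 of 4 clones. The median covered length changed by 407 bp in WT_5, 308 bp in KO_C5 and 265 bp in KO_D2, and fell by 361 bp in WT_4. The number of peaks in the list moved the same way in each clone, from 29567 to 37533 in WT_5, 19255 to 27457 in KO_C5 and 16730 to 24727 in KO_D2, and from 21715 to 18913 in WT_4. The mean change was 155 bp, and with lists of equal length it was 91.8 bp. Beyond this, the part of the peak number in the width was not tested. Without WT_IFNg replicate 2 the mean of the IFNγ libraries lay 25.8 bp below that of the untreated ones.

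The cover was longer with IFNγ in all 4 clones at 40 members (12.3%, against 7.69% of all regions and 11.8% of other regions in all 8 lists). It was shorter in all 4 at 8 members (2.47%, against 1.09% and 2.51%), which included CDKN1C and TRIO. Every IFNγ library exceeded every untreated library at 7 members (2.16%, against 1.26%), and the reverse was seen at 0, against 0.104% of all regions. Among other regions in all 8 lists these shares were 1.67% and 0.196%. Merged length chose the members, and WT_IFNg replicate 2 was the widest library at 137 of them. The rule itself thus favoured wide cover in that library, and these shares are a description. The 7 were CLCN2 with POLR2H, RAP2B, FOSL2, INKA1, a region near MAML3, BMPR2 and MYC.

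MYC, the proto-oncogene transcription factor, covered 797 and 638 bp in WT, 324 and 321 bp in KO, 1253 and 2042 bp in WT_IFNg and 1211 and 1403 bp in KO_IFNg. The lowest IFNγ library stood above the highest untreated one. Only WT_IFNg replicate 2 covered 2000 bp or more, so the rule itself favoured wide IFNγ cover here. The pileup of MYC did not follow, at 69 and 55 fragments in WT, 39 and 42 in KO, 38 and 80 in WT_IFNg and 87 and 62 in KO_IFNg. FOSL2, an AP-1 subunit, covered 1775 and 2005 bp in WT, 1758 and 1448 bp in KO, 2094 and 2162 bp in WT_IFNg and 2121 and 2075 bp in KO_IFNg. BMPR2, a BMP receptor, covered 694 and 971 bp in WT, 872 and 897 bp in KO, 1150 and 2010 bp in WT_IFNg and 1625 and 1627 bp in KO_IFNg. There too WT_IFNg replicate 2 alone reached 2000 bp. At JUN, in contrast, the cover was 1919 and 2796 bp in WT, 1473 and 1358 bp in KO, 1356 and 2325 bp in WT_IFNg and 1672 and 1441 bp in KO_IFNg, and the treatments overlapped.

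Fold enrichment was compared with limma on log2 values centred on each library's median, over the 11551 regions with a peak in all 8 lists. After Benjamini-Hochberg adjustment no region passed 0.05 for genotype (0% of all and 0 of 298 broad regions), for IFNγ (0% and 0) or for the interaction (0% and 0). At an unadjusted p under 0.05 stood 17 broad regions for genotype (5.70%, against 6.09% of all), 13 for IFNγ (4.36%, against 3.13%) and 2 for the interaction (0.671%, against 0.831%). The median difference over the broad regions was 0.06 for WT minus KO, -0.10 for IFNγ minus untreated and 0.08 for the interaction, against -0.01, -0.08 and 0.08 over all regions (log2). With clone as a block, 36 broad regions stood under 0.05 unadjusted for IFNγ (12.1%, against 15.6% of all) and 13 for the interaction (4.36%, against 6.65%). In that fit 1 of the 11551 regions passed the adjusted threshold for IFNγ, and it was not a broad one.

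The members with the smallest unadjusted p did not pass the adjusted threshold, and their values are given for description. TENT4A, a non-canonical poly(A) polymerase, had a fold enrichment of 131 and 112 in WT, 59.1 and 41.8 in KO, 96.5 and 141 in WT_IFNg and 48.0 and 30.9 in KO_IFNg. The difference after centring was 0.88 ± 0.27 (log2, WT minus KO, SE; limma adjusted p = 0.761), while its pileup of 157 to 258 in WT and 168 to 255 in KO overlapped. OAZ1, an inhibitor of polyamine synthesis, had 0.94 ± 0.29 and B3GALNT2, a glycosyltransferase, 0.78 ± 0.27, both at an adjusted p of 0.761 by limma. The order was opposite at CDKN1C (-0.88 ± 0.27) and at KLF13 (-0.94 ± 0.34), where fold enrichment was 59.4 and 62.5 in WT, 110 and 57.2 in KO, 35.1 and 73.5 in WT_IFNg and 93.9 and 46.0 in KO_IFNg. At KLF13 the high values before centring came from clone KO_C5. The libraries differed in their medians, however. Over other regions in all 8 lists, median fold enrichment was 34.4 and 26.0 in WT and 20.5 and 18.1 in KO. It was 22.5 and 36.9 in WT_IFNg and 24.5 and 17.3 in KO_IFNg. Relative to these medians, both KO clones lay above the WT clones at KLF13.

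For IFNγ the smallest p among the members was at BAZ1A, a subunit of a chromatin remodeller. Its fold enrichment was 14.5 and 7.60 in WT, 7.68 and 7.99 in KO, 17.8 and 23.7 in WT_IFNg and 12.1 and 12.98 in KO_IFNg. All 4 clones were higher with IFNγ, by 0.80 ± 0.23 (log2, SE; limma adjusted p = 0.884). The SE and p-values of this paragraph come from the fit on 4 groups, which leaves out the pairing by clone. With clone as a block, the smallest limma adjusted p for IFNγ among the broad regions was 0.198. ELF1 with WBP4 gave 0.92 ± 0.26 and VIM, the mesenchymal intermediate filament gene, 0.50 ± 0.20. In the other direction, CCDC85C gave -0.50 ± 0.18 and CDKN1C -0.56 ± 0.20, all at an adjusted p of 0.884 by limma. CDKN1C had a fold enrichment of 18.8 and 19.3 in WT, 19.2 and 18.9 in KO, 9.45 and 11.7 in WT_IFNg and 18.7 and 14.2 in KO_IFNg. Before centring, the lowest values were thus those of the WT clones with IFNγ. Relative to the medians of other regions given above, CDKN1C was lower with IFNγ in all 4 clones.

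A single clone stood out at some of the longest members. Both libraries of WT_4 exceeded the other 6 in covered length at 42 members (12.96%, against 5.06% of all regions), both of WT_5 at 51 (15.7%, against 21.2%), both of KO_C5 at 6 (1.85%, against 2.25%) and both of KO_D2 at 0, against 0.43% of all regions. Among other regions in all 8 lists the shares were 7.40% for WT_4, 16.8% for WT_5, 1.00% for KO_C5 and 0.284% for KO_D2. Of the 6 of KO_C5, 4 were the satellite regions shown above. The longest of these, 8863 bp, was covered for 0 and 214 bp in WT, 8863 and 5239 bp in KO, 1244 and 1152 bp in WT_IFNg and 7419 and 3119 bp in KO_IFNg. The second, 6326 bp, was covered for 264 and 0 bp in WT, 6296 and 1073 bp in KO, 802 and 2019 bp in WT_IFNg and 2916 and 494 bp in KO_IFNg. Pileup at the longest was 11 to 29 fragments in the 7 libraries with a peak. There the local background was 0.63 to 1.08 in the KO and 3.80 to 5.48 in the 3 WT libraries with a peak, which is the reverse of the order at most members.

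Satellite DNA was not confined to the broad regions. Of all 31829 regions, 65 held 20 or more of the words per kb. KO replicate 1 had a peak in 60 of them and covered 48896 bp, against 25064 bp in KO replicate 2, 35127 and 15695 bp in KO_IFNg and 13216 to 17612 bp in the WT libraries. Reads of low mapping quality, as reads from repeats often are, had been removed by the authors before peaks were called.

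The first 6 Mb of chromosome 7 held 14 of the 22 broad regions of that chromosome, and this stretch was singled out after its values had been seen. They covered the growth factor gene PDGFA, the secreted kinase FAM20C, the small MAF factor MAFK, the Notch modifier LFNG, the actin bundler FSCN1, TMEM184A, ELFN1 (2 regions), TNRC18 and others. KO_C5 had the lowest mean cover of the 4 clones, or shared it, at 13 of the 14, and both WT_4 libraries exceeded both KO_C5 libraries at 12. TMEM184A covered 3076 and 618 bp in WT, 0 and 286 bp in KO, 1755 and 868 bp in WT_IFNg and 0 and 476 bp in KO_IFNg. PDGFA covered 2660 and 1616 bp in WT, 1519 and 1600 bp in KO, 2768 and 1556 bp in WT_IFNg and 1481 and 1610 bp in KO_IFNg, so that WT_4 alone stood apart. LFNG was the exception, with no peak in either WT_4 library.

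All peaks of this stretch followed the same clones. They made up 18.9 and 19.3 per 1000 peaks in WT_4, 9.57 and 11 in WT_5, 3.64 and 5.21 in KO_C5 and 9.26 and 11.6 in KO_D2. The rest of chromosome 7 held 40.6 to 46.2 per 1000 in every library. Median local background in the stretch was 1.15 and 1.18 fragments in WT_4, against 1.03 and 1.01 on the rest of the chromosome, and 5.55 and 6.84 in KO_C5, against 1.90 and 2.51. In KO_D2 it was 4.36 and 6.67 against 1.96 and 3.2. Median summit pileup of the peaks in the stretch ran the other way from their number. It was 12 and 11 fragments in WT_4, 18 and 14 in WT_5, 97 and 59 in KO_C5 and 40 and 37 in KO_D2. The part of the background in these widths was not tested.

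**Figure D5:**
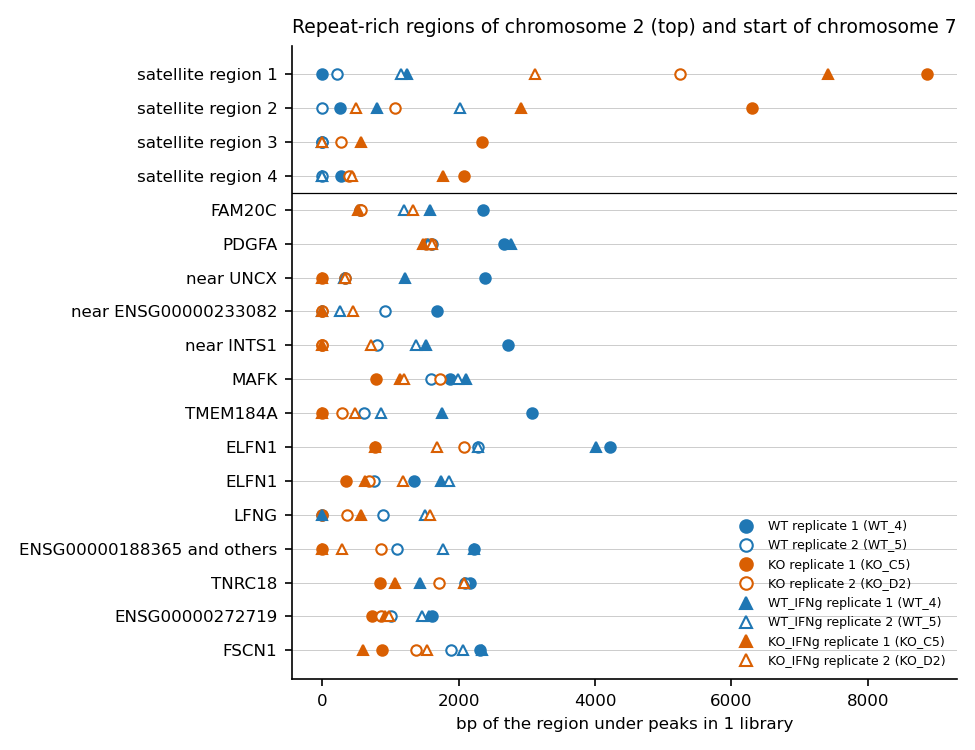
Base pairs under peaks in each library (x axis, bp) for the 4 satellite regions of chromosome 2 and the 14 broad regions in the first 6 Mb of chromosome 7 in their order along the chromosome (y axis). Circles are untreated and triangles IFNγ libraries, blue is WT and orange KO, and filled symbols are replicate 1 (WT_4 and KO_C5); KO_C5 reaches 8863 bp at the first satellite region and 0 bp at TMEM184A, where WT_4 reaches 3076 bp.

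Chromosome 8 held 22 of them (6.79%, against 3.75% of other regions with a protein-coding start), chromosome 16 held 20 (6.17%, against 4.45%), chromosome 22 held 13 (4.01%, against 2.44%) and chromosome X held 4 (1.23%, against 3.23%). Chromosomes 3 and 11 each held 11 members (3.395%, against 5.63% on each), and chromosome 21 held 5 (1.54%, against 0.871%). The 26 members that lacked a peak in some list were 4 satellite regions, 6 regions of the chromosome 7 stretch and 16 others, such as VSTM2B, the glutamate receptor gene GRID1, the growth factor gene MDK and the cadherin gene CDH4. For GRID1 the cover was 655 and 1879 bp in WT, 1641 and 472 bp in KO, 682 and 2757 bp in WT_IFNg and 1541 and 0 bp in KO_IFNg, with no order by genotype.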

How the data were processed

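FAIRE-seq was done on 8 libraries, 2 per group, and pairing is by clone: the untreated and IFNγ library of a clone deviated from their group means together (r = 0.69 in WT and 0.39 in KO over 11551 regions), whereas WT and KO share only replicate numbers. Per the labels, the submitters' processing notes and the study's methods, the authors trimmed reads, aligned them with Bowtie2 2.2.5 to GRCh38, used SAMtools 1.14 to discard poorly mapped reads, and called peaks with MACS2 2.2.7.1. Input DNA was also prepared, but whether it served as the control for peak calling, and how duplicates were handled, is not given in the sources used here. The authors deposited 1 peak list per library, which preceded their IDR filter on replicates, with fold enrichment (a ratio of pileup to local background), −log10 p-values and q-values, a display score and a summit offset. The depth of each library is unknown from the lists, and the study's methods give only a range of reads over its FAIRE-seq samples. Replicates are clones, and p-values measure the spread between 2 clones per genotype only.

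Peaks were merged across lists with an overlap of 1 bp, which gave the same regions as bedtools 2.31.1 merge. The summit pileup and the background behind each peak were recovered by solving the fold enrichment and p-value together, and 98.6% of the pileups came out within 0.05 of a whole number. Covered length is the base pairs of a region under peaks of 1 library. Starts, exons and canonical transcripts came from GENCODE 44. limma 3.58.1 in R 4.3.3 was fitted to the highest log2 fold enrichment per region, centred on the library median, for genotype on clone means (WT minus KO) and for IFNγ and the interaction on 4 groups, and it was tested on simulated data. Exact binomial intervals are for counting error over regions only. The members, gene lists and tests were chosen with earlier results of these data known. Named regions are the 15 longest, the 10 strongest by percentile, 3 per gene list, 5 per direction of each comparison by p, 5 per presence or length pattern, and 3 on each side of 2000 bp. MBOAT7 with TSEN34, the chromosome 7 regions, the single-exon and housekeeping genes and others outside this rule were named after their values were seen. The share of repeat-masked bases was planned but could not be measured, since the reference sequence carries no masking. Some results are not reported here. Columns of pooled samples or of authors' comparisons were absent. Alternatives changed the peak threshold (−log10 q of at least 3, fold enrichment of at least 4, lists of equal length), the overlap, the length limit, the number of lists, the start definition, the scaling, the replicate block and the libraries included.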

Additional observations from a re-analysis of the deposited data

Results flagged for a closer look

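At 39 of the 298 members with a peak in all 8 lists, fold enrichment after centring moved with IFNγ one way in both WT clones and the other way in both KO clones (13.1%, against 1430 or 12.4% of all 11551 such regions). Of the members named for their interaction p, 6 of those that did so are given here. The response in WT minus that in KO (log2) was 1.10 at CEBPD, 1.00 at KCNC4, 0.81 at CUX1 and 0.79 at MAP7D1 with TRAPPC3, and it was -0.89 at IER5L and -0.79 at HAPSTR1. The limma interaction test gave an adjusted p of 1.00 at each of them, so none of these differences passed.

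Outside chromosomes 1 to 22 and X, 1 merged region met the same rule of length and presence. It was the mitochondrial genome, with a peak in all 8 lists and a merged length of 16567 bp.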

How the results depend on the processing

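The number of broad regions fell to 214 when the widest library alone had to cover 2000 bp, and it was 1266 at a limit of 1500 bp and 38 at 3000 bp. At 3000 bp the share with a protein-coding start was 84.2% and that with a peak in all 8 lists 86.8%; with lists of equal length the latter was 86.1%. With the gene's 5′ end alone in place of any transcript start, 73.1% covered a protein-coding start. Presence patterns by genotype or treatment rose from 0 to 1 with a fold enrichment of at least 4. Leaving out 1 library at a time gave 225 to 321 broad regions, 87.6% to 89.4% with a protein-coding start, 3.26% to 5.15% with a developmental regulator, 92.0% to 94.0% with a peak in all remaining lists, 0 to 2 presence patterns, 46 to 98 members wider in every WT library, and a WT minus KO difference in median cover of 418 to 595 bp. The IFNγ difference ranged from -25.8 to 267 bp and reversed without WT_IFNg replicate 2. With lists of equal length the IFNγ difference was 91.8 bp and the WT minus KO difference 506 bp.

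The count of calls among broad regions stayed 0 for genotype, IFNγ and the interaction under every alternative, the replicate block by clone included (0 calls among broad regions in each comparison). Without centring, the median WT minus KO difference over all regions moved from -0.01 to 0.55 and 34 of 11551 regions passed for genotype, none of them broad. With the summit pileup in place of fold enrichment, 2 broad regions (0.671%, against 0.381% of all) stood under an unadjusted p of 0.05 for genotype, in place of 17. The main limits are 2 clones per genotype, a depth that is not known for each library, and a merged length that 1 library can set.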
